A study of Mus musculus with 3 samples.

Results

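In the gonads of male Cyp26b1-/- mouse embryos, 44 genes had their highest signal at embryonic day 13.5 (E13.5), above both the day before (E12.5) and the day after (E14.5). They included the Nodal antagonist Lefty1, the TGF-beta family ligand Gdf3, the ligand Wnt3 and its pathway's antagonist Dkk1, the early germ cell genes Dppa3 and Ifitm3, the de novo DNA methyltransferase Dnmt3a and the meiotic recombination gene Mnd1. Of these named genes, only Gdf3 and Mnd1 were kept under each of 5 processing alternatives and without each of the 6 arrays. The Dnmt3a peak was on its brightest probe and not on its other probes. All 6 arrays carried RNA of the same genotype, Cyp26b1-/-, in the MCH mouse line, from gonads that the labels give as male. Each stage, E12.5, E13.5 or E14.5, had 2 arrays, biological duplicates per the series' design text. How many embryos gave the RNA of an array is not given in the sources used here, and arrays of another genotype were not analysed here. The values therefore describe how signal moved between stages within the knockout gonad and say nothing of its difference from a gonad with Cyp26b1.

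The 44 genes were chosen from these same values. A value is the log2 signal of a gene's brightest probe minus the 75th percentile of all probes on that array, so 0 is a signal at that percentile and a difference of 1 is a 2-fold difference. A gene was kept when its probe stood well above background on all 6 arrays, when its E13.5 mean exceeded both other stage means by at least 0.5, and when its lower E13.5 array lay above all 4 other arrays. The 44 genes were 0.353% of the 12469 genes well above background on all 6 arrays, out of 16531 named genes measured. The same rule turned round gave 81 genes lowest at E13.5, 1265 genes highest at E12.5 and 625 genes highest at E14.5. Because the rule used all 6 arrays, the peak itself is given here as a description with no test.

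The labelled tissue was checked against its markers. The Sertoli cell genes Sox9 and Amh, the germ cell gene Ddx4, the gonadal and steroidogenic regulator Nr5a1 and, from the Y chromosome, Ddx3y, Eif2s3y, Uty and Kdm5d each passed the scanner software's test of signal over background on every one of the 6 arrays, and Xist on 0. The probe of Cyp26b1 itself read 4.96 and 4.73 on the E12.5 arrays, 4.29 and 4.20 on those of E13.5, and 4.27 and 3.83 on those of E14.5. Where this probe lies relative to the deleted part is not given in the sources used here, so it does not check the knockout. Between 65.3% and 70.1% of probes were well above background on an array, and 0 spots were saturated. The E12.5 pair was hybridised on slide 1 and the E13.5 and E14.5 pairs on slide 2, so for every difference from E12.5 the stage and the slide cannot be told apart, while E13.5 and E14.5 were compared within slide 2.

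Cyp26b1 is an enzyme of the cytochrome P450 family that degrades retinoic acid. In the fetal testis it shields germ cells from retinoic acid, which otherwise induces Stra8 and entry into meiosis, as happens in the fetal ovary. In the same period male germ cells pass through a phase of Nodal signalling, in which Nodal and its co-receptor act through Smad proteins on targets that include its own antagonists Lefty1 and Lefty2, while genes carried over from the pluripotent, early germ cell state are turned down.

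Among the 44 genes the smaller of the E13.5 margins, that is the E13.5 mean minus the higher of the other stage means, had a median of 0.66 and ran from 0.50 to 1.39. It was at least 1 in 7 genes. The E12.5 mean set this margin in 20 genes and the E14.5 mean in 24. The difference of E13.5 from E12.5 had a median of 0.98 and reached 3.25, and the difference of E13.5 from E14.5 had a median of 0.77 and reached 1.85. The step between the lower E13.5 array and the next array below it was small, with a median of 0.28. It was over 0.5 in 2 genes, Aldh1a7 at 0.64 and Rasgrp1 at 0.54, and under 0.1 in 5 genes, with the smallest, 0.01, in Fam25c.

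**Figure D1:**
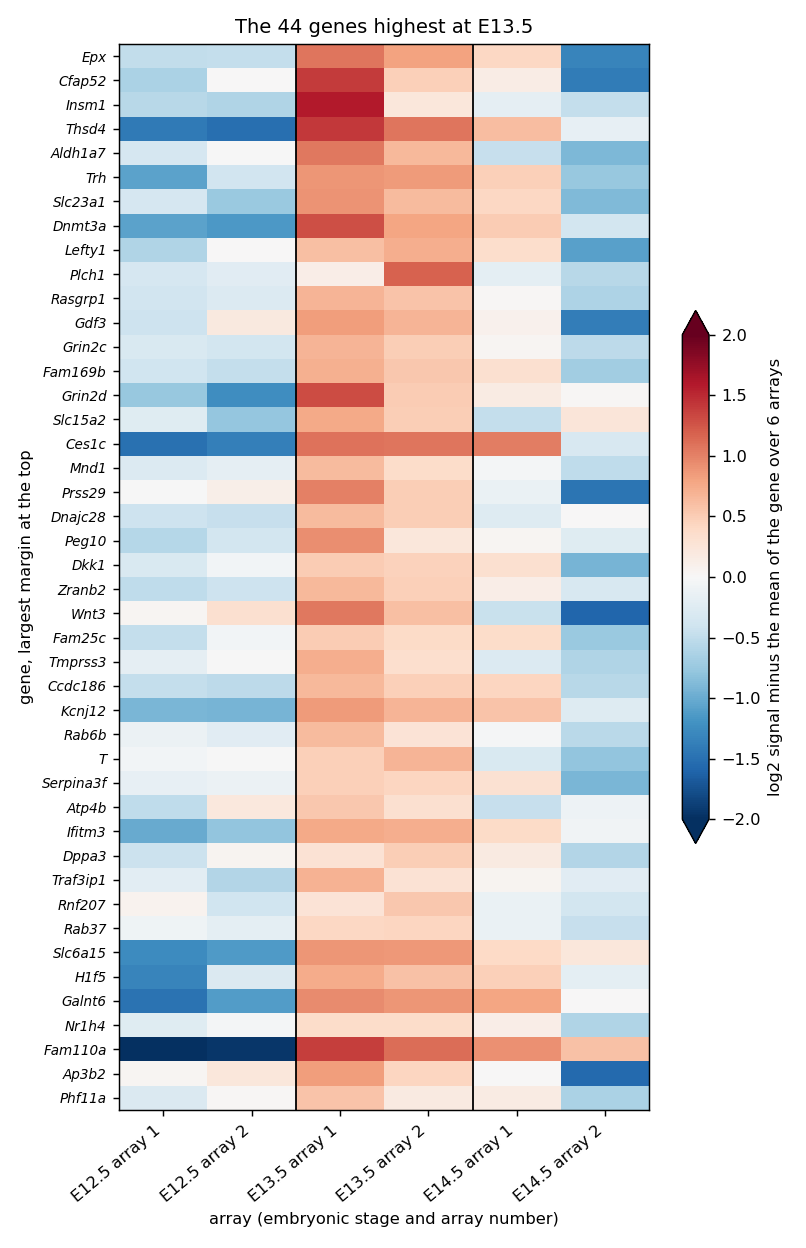
Log2 signal of each of the 44 genes (rows, largest margin at the top) on each of the 6 arrays (columns, by stage), as the difference from the gene's mean over the 6 arrays; red is above that mean and blue below it. Both E13.5 columns are above the gene's mean in every row because the rule asked for it. The second E14.5 array is below the first in 41 of 44 genes, and the rule used both of these arrays too.

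At the threshold, the genes just inside were Fam110a with a smaller margin of 0.51, Ap3b2 with 0.51 and Phf11a with 0.50. Just outside were the ubiquitin ligase component gene Asb4 with 0.50, the valyl-tRNA synthetase gene Vars with 0.49 and the translocation-associated membrane protein gene Tram2 with 0.49. If the arrays were allowed to overlap, 53 genes met the margin. Lefty2 missed the margin, at 0.49, with 0.79 and 1.30 on the E12.5 arrays, 1.57 and 1.49 on those of E13.5, and 0.52 and 0.05 on those of E14.5. Lefty2 was named after its values were seen. Lefty1 and Lefty2 were thus both highest on average at E13.5, and the rule kept Lefty1.

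Lefty1, which encodes an antagonist that binds Nodal and its co-receptor, read 1.46 and 2.06 on the E12.5 arrays, 2.66 and 2.78 on those of E13.5, and 2.41 and 0.97 on those of E14.5. The E13.5 arrays were close to each other, and the first E14.5 array lay within 0.25 of the lower of them, whereas the second was the lowest of all 6. Gdf3, a ligand of the TGF-beta family known from pluripotent cells and the early embryo, read -2.06 and -1.44 on the E12.5 arrays, -0.80 and -0.96 on those of E13.5, and -1.55 and -3.03 on those of E14.5. Its E14.5 duplicates were 1.48 apart, more than the 0.87 by which E13.5 exceeded the E12.5 mean. These were the members from a list of 36 TGF-beta, BMP and activin genes, of which 34 were well above background on every array and 11 had their highest stage mean at E13.5. Over all 12469 genes the E13.5 mean was the highest in 24.4% and the lowest in 17.5%.

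Wnt3 encodes a ligand of the canonical, beta-catenin dependent pathway, and it had the set's largest excess of E13.5 over E14.5, 1.85. It read -0.69 and -0.39 on the E12.5 arrays, 0.34 and -0.12 on those of E13.5, and -1.16 and -2.31 on those of E14.5, so both E14.5 arrays lay below both E12.5 arrays. Dkk1, which encodes a secreted antagonist that blocks the Wnt co-receptors Lrp5 and Lrp6, read -0.36 and -0.12 on the E12.5 arrays, 0.44 and 0.40 on those of E13.5, and 0.25 and -0.99 on those of E14.5. That ligand and antagonist share the peak stage follows from the rule, which chose all 44 genes for it. Only for Wnt3 were both E14.5 arrays well under the E13.5 pair. T, or Brachyury, the T-box transcription factor of the primitive streak and a known Wnt target there, was dim at every stage. It read -4.17 and -4.12 on the E12.5 arrays, -3.64 and -3.43 on those of E13.5, and -4.42 and -4.90 on those of E14.5, with no overlap between any of the 3 stages.

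Of 35 genes listed for the Wnt pathway 31 were well above background on every array. E13.5 was the highest stage in 7 of them, Wnt3 and Dkk1 included, beside 24.4% of all genes, and the lowest in 8. Axin2, a feedback inhibitor that Wnt signalling induces in many tissues, read -1.31 and -1.40 on the E12.5 arrays, -2.34 and -1.66 on those of E13.5, and -1.61 and -1.55 on those of E14.5, so its E13.5 arrays were the lowest. Axin2 was named after its values were seen. In whole gonads, fewer cells of a type and less RNA per cell cannot be told apart, for these genes and for all that follow.

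The promoters of Wnt3, Dkk1 and T are shown as examples from the Wnt-related genes above. That of H1f5, a linker histone gene described below, is shown because its window holds both CCAAT and TATAAA. Each window runs from 250 bases before to 50 after the start of the gene, from RefSeq on GRCm38.p6, 5′ to 3′ on the strand of the gene. Capitals mark CCAAT, its reverse complement ATTGG, and TATAAA. The windows are chr11:103773925-103774224 on the plus strand for Wnt3, chr19:30549447-30549746 on the minus strand for Dkk1, chr17:8434173-8434472 on the plus strand for T and chr13:21780576-21780875 on the minus strand for H1f5.
Wnt3: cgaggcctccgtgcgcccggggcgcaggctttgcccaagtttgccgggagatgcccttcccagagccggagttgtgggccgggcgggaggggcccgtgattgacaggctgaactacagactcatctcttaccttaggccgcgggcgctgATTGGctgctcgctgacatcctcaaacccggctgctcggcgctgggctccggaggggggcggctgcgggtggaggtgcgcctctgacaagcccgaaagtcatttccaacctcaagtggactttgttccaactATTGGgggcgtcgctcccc
Dkk1: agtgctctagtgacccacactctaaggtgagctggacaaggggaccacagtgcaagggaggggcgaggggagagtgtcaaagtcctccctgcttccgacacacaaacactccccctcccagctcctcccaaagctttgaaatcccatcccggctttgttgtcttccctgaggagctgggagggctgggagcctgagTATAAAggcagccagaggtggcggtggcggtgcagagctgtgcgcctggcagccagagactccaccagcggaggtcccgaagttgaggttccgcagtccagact
T: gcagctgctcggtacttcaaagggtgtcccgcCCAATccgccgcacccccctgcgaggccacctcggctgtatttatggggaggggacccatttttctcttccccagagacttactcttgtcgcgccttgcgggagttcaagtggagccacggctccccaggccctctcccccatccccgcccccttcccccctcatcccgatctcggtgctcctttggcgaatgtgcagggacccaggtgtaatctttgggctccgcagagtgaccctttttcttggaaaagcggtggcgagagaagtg
H1f5: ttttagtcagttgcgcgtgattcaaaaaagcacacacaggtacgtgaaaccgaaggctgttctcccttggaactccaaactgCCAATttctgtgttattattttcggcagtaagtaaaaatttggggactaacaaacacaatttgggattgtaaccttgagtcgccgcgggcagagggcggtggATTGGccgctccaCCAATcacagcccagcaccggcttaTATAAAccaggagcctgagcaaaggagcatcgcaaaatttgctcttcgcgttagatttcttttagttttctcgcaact
Wnt3 and T held CCAAT letters and no TATAAA, and Dkk1 held TATAAA, at position -54 from the start, and no CCAAT. H1f5 held TATAAA at -28 together with 3 CCAAT matches, at -168, -66 and -53. The 3 genes other than H1f5 also differed in composition, with 24 CpG dinucleotides in the Wnt3 window, 9 in that of Dkk1 and 17 in that of T. A match is a description of these letters and was not tied to binding or to the time course.

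**Figure D2:**
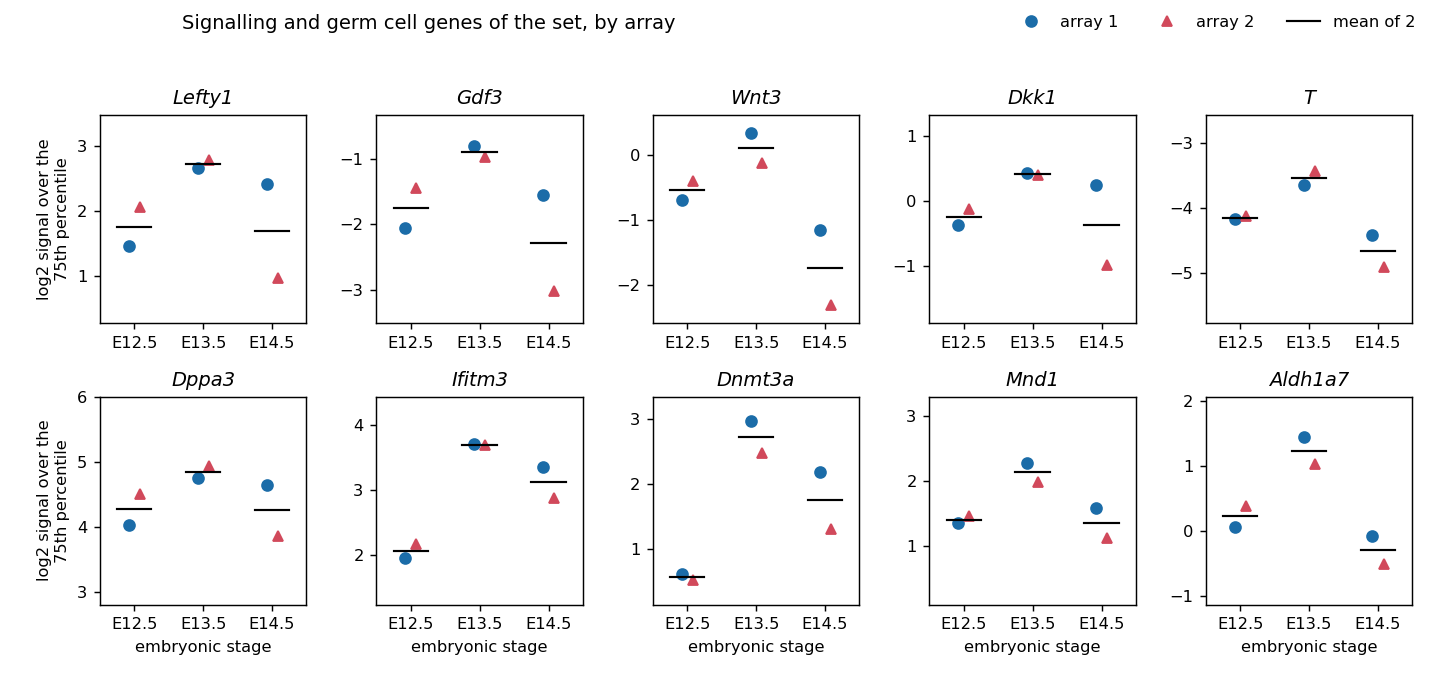
Log2 signal over the array's 75th percentile (y axis, own scale for each gene) by embryonic stage (x axis) for 10 signalling and germ cell genes of the set, with circles for array 1, triangles for array 2 and a bar for the mean of both. For Lefty1, Gdf3 and Dkk1 the second E14.5 array lies far below the first (0.97 against 2.41 for Lefty1), whereas for Aldh1a7 all 4 outer arrays lie at 0.39 or below.

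Among regulators outside those lists, Trh encodes the precursor of thyrotropin-releasing hormone. It read -4.34 and -3.64 on the E12.5 arrays, -2.39 and -2.42 on those of E13.5, and -2.79 and -4.03 on those of E14.5. Insm1, which encodes a zinc finger transcription factor of neuroendocrine cells, read -5.52 and -5.58 on the E12.5 arrays, -3.40 and -4.75 on those of E13.5, and -5.16 and -5.45 on those of E14.5. Its margin of 1.23 rests largely on the first E13.5 array, since the E13.5 duplicates were 1.35 apart. Nr1h4, the bile acid receptor, had tight E13.5 duplicates at -3.98 and -3.99 and a margin of only 0.51.

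Dppa3 and Ifitm3 are germ cell genes of the set. Dppa3, known as Stella and carried from early germ cells into the oocyte, read 4.03 and 4.51 on the E12.5 arrays, 4.75 and 4.94 on those of E13.5, and 4.64 and 3.87 on those of E14.5. Ifitm3, or Fragilis, a membrane protein gene of early germ cells that interferon also induces in other cells, read 1.96 and 2.18 on the E12.5 arrays, 3.72 and 3.69 on those of E13.5, and 3.35 and 2.89 on those of E14.5. The 2 genes differ in their outer stages. Dppa3 had close means there, 4.25 ± 0.55 at E14.5 and 4.27 ± 0.34 at E12.5 (SD, n = 2 each). Its first E14.5 array lay above both E12.5 arrays, however, and its second below both. Ifitm3 was higher on both E14.5 arrays, 3.12 ± 0.33, than on both E12.5 arrays, 2.07 ± 0.15.

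Dnmt3a, which with its cofactor Dnmt3l lays down DNA methylation in fetal male germ cells, read 0.61 and 0.53 on the E12.5 arrays, 2.96 and 2.47 on those of E13.5, and 2.19 and 1.32 on those of E14.5 on its brightest probe. Dnmt3l, which was not in the set, read -5.21 and -4.82 on the E12.5 arrays, -4.42 and -4.12 on those of E13.5, and -3.88 and -2.94 on those of E14.5, so it was highest at the last stage. Mnd1, whose product with that of Psmc3ip helps the recombinase Dmc1 in meiotic strand exchange, read 1.35 and 1.45 on the E12.5 arrays, 2.27 and 1.99 on those of E13.5, and 1.59 and 1.12 on those of E14.5. Its partners did not share the peak to that extent. Psmc3ip read 1.44 and 1.64 on the E12.5 arrays, 1.79 and 1.70 on those of E13.5, and 1.62 and 1.55 on those of E14.5, a margin of 0.16, and Dmc1 was highest at E14.5, with -0.83 and -0.85 there against -2.24 and -1.76 at E13.5. Dnmt3l, Psmc3ip and Dmc1 were named after their values were seen.

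Of 26 meiosis genes well above background on all 6 arrays, 3 had the E13.5 mean highest, beside 24.4% of all genes. Of the 26 genes 0 were in the set. Mnd1 is not on that list. By limma, with all 13412 genes tested and a Benjamini-Hochberg adjusted p of 0.05 as threshold, 24 of 28 meiosis genes tested rose and 1 fell between E12.5 and E14.5, with a median difference of 2.09, beside 25.6% of all genes called higher and 21.2% called lower. Stra8, the retinoic acid induced gene of meiotic entry, read 3.98 and 4.33 on the E12.5 arrays, 6.44 and 6.77 on those of E13.5, and 7.19 and 7.04 on those of E14.5. Stra8 was thus highest at the last stage, unlike the 44 genes.

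The early germ cell and pluripotency list gave Gdf3 and Ifitm3 to the set. Of its 22 genes well above background on all 6 arrays, 11 had the E13.5 mean highest, beside 24.4% of all genes. Leaving out each array in turn, this count ran from 8 without the first E12.5 array to 14 without the second E12.5 or the second E13.5 array, beside 22.4% to 27.5% of all genes. Most of these peaks were small. Sox2 read 0.76 and 0.75 on the E12.5 arrays, 0.90 and 0.84 on those of E13.5, and 0.49 and -0.92 on those of E14.5. Nanog, at -1.18 and -0.54, then -0.68 and -0.87, then -1.74 and -2.99 over the 3 stages, had both E14.5 arrays below all others. Tfap2c, an early germ cell transcription factor gene, instead read 0.88 on both E12.5 arrays, -1.21 and -1.89 on those of E13.5, and -3.46 and -4.08 on those of E14.5, lower at each stage than at the one before. These 3 genes were named after their values were seen. By limma 3 of the 22 rose and 11 fell between E12.5 and E14.5, with a median difference of -0.91, beside 25.6% of all genes higher and 21.2% lower.

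H1f5 encodes a replication-dependent linker histone. It read -0.17 and 0.86 on the E12.5 arrays, 1.89 and 1.74 on those of E13.5, and 1.62 and 0.96 on those of E14.5, so that its E12.5 duplicates were 1.03 apart, the widest at that stage among the 44 genes. Of 13 histone genes well above background on all 6 arrays, 5 had the E13.5 mean highest, beside 24.4% of all genes. H1f4, another linker histone gene, read 0.48 and 1.17 on the E12.5 arrays, 1.89 and 1.96 on those of E13.5, and 2.03 and 1.47 on those of E14.5, with overlap of the later stages. H1f4 was named after its values were seen.

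Several members encode enzymes. Aldh1a7, an aldehyde dehydrogenase gene close in sequence to Aldh1a1, which makes retinoic acid, had the clearest separation of the set. It read 0.06 and 0.39 on the E12.5 arrays, 1.44 and 1.03 on those of E13.5, and -0.08 and -0.50 on those of E14.5. Aldh1a1 read 4.31 and 4.47 on the E12.5 arrays, 5.10 and 5.22 on those of E13.5, and 5.20 and 5.23 on those of E14.5, and so stayed at its E13.5 level. Of 23 retinoic acid pathway genes well above background on all 6 arrays, 3 had the E13.5 mean highest and 3 the lowest. Over all genes these shares were 24.4% and 17.5%. Aldh1a1 was named after its values were seen.

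Ces1c, a carboxylesterase gene, and Galnt6, whose product starts mucin-type O-glycosylation, were low at E12.5 and high on 3 of the later arrays. Ces1c read -5.72 and -5.60 on the E12.5 arrays, -3.14 and -3.15 on those of E13.5, and -3.21 and -4.55 on those of E14.5. Galnt6 read -3.87 and -3.51 on the E12.5 arrays, -1.45 and -1.50 on those of E13.5, and -1.60 and -2.38 on those of E14.5. For both genes the first E14.5 array was within 0.1 of the lower E13.5 array. The serine protease gene Prss29 had a margin of 0.69 over E12.5 and the transmembrane serine protease gene Tmprss3 one of 0.63. In both genes the 2 E14.5 arrays lay below both E12.5 arrays.

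Epx, the eosinophil peroxidase gene, had the largest smaller margin of the 44 genes, 1.39, or 2.63-fold. It read -4.53 and -4.52 on the E12.5 arrays, -2.96 and -3.23 on those of E13.5, and -3.62 and -5.36 on those of E14.5. Its E14.5 duplicates were 1.75 apart, also the widest of the set, and the raw signal at its lowest was 26.7 units. Of 30 other immune cell genes listed, 15 were well above background on every array. Of these 15 genes, 1 had the E13.5 mean highest, beside 24.4% of all genes. Their summed level (log2) was 1.64 and 1.09 on the E12.5 arrays, 1.30 and 0.82 on those of E13.5, and 2.03 and 1.44 on those of E14.5, while the T cell genes Cd3d and Cd3g, the B cell gene Ms4a1 and the natural killer cell gene Ncr1 were above background on 0 arrays. The part of immune cells in the Epx result was not tested.

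Signalling enzymes were represented by Rasgrp1 and Plch1. Rasgrp1, a diacylglycerol-controlled activator of Ras known from lymphocytes, read -2.47 and -2.37 on the E12.5 arrays, -1.42 and -1.53 on those of E13.5, and -2.07 and -2.70 on those of E14.5, the second clearest separation of the set. Plch1, a phospholipase C gene, read -4.99 and -4.88 on the E12.5 arrays, -4.51 and -3.48 on those of E13.5, and -4.85 and -5.22 on those of E14.5, so its peak rests on the second E13.5 array.

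Channels and transporters made up a further group. Grin2c and Grin2d encode subunits of the NMDA type glutamate receptor. Grin2c read -1.08 and -1.15 on the E12.5 arrays, -0.10 and -0.28 on those of E13.5, and -0.74 and -1.31 on those of E14.5. Its E14.5 mean, -1.03, was near its E12.5 mean, -1.11. The first E14.5 array lay above both E12.5 arrays, however, and the second below both. Grin2d read -0.71 and -1.20 on the E12.5 arrays, 1.34 and 0.56 on those of E13.5, and 0.21 and 0.07 on those of E14.5, so it stayed above E12.5. Grin1, the subunit that every NMDA receptor needs, was dim and was lowest at E13.5, with -4.04 and -3.86 on the E12.5 arrays, -4.21 and -4.74 on those of E13.5, and -4.54 and -4.12 on those of E14.5. Grin1 was named after its values were seen.

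Kcnj12, an inward rectifier potassium channel gene, read -2.95 and -2.96 on the E12.5 arrays, -1.18 and -1.35 on those of E13.5, and -1.47 and -2.29 on those of E14.5. Slc6a15, a transporter of neutral amino acids, read -5.64 and -5.51 on the E12.5 arrays, -3.49 and -3.52 on those of E13.5, and -3.98 and -4.16 on those of E14.5, with 3 tight pairs that do not overlap. Slc23a1, a vitamin C transporter gene, read -4.85 and -5.25 on the E12.5 arrays, -3.61 and -3.87 on those of E13.5, and -4.10 and -5.39 on those of E14.5. The peptide transporter gene Slc15a2 was 1 of 3 genes whose second E14.5 array was the higher, with -4.09 and -4.63 on the E12.5 arrays, -3.10 and -3.36 on those of E13.5, and -4.33 and -3.61 on those of E14.5. Atp4b, the beta subunit gene of the gastric proton pump, had a margin of 0.58 with its E12.5 duplicates 0.72 apart.

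The trafficking and cilium genes were Ap3b2, Rab6b, Rab37, Ccdc186, Cfap52 and Traf3ip1. Ap3b2, a subunit of the neuronal AP-3 adaptor, read 2.58 and 2.77 on the E12.5 arrays, 3.38 and 2.98 on those of E13.5, and 2.56 and 0.98 on those of E14.5, so the second E14.5 array alone stood far from the rest. The small GTPase genes Rab6b and Rab37 had margins of 0.62 and 0.56, and Ccdc186, a gene of dense-core vesicle formation, one of 0.62. Cfap52, a gene of motile cilia and flagella, read -2.37 and -1.72 on the E12.5 arrays, -0.34 and -1.26 on those of E13.5, and -1.58 and -3.14 on those of E14.5. Traf3ip1, a gene of intraflagellar transport, had a margin of 0.57. Of 11 cilium and flagellum genes well above background on all 6 arrays, 1 had the E13.5 mean highest, beside 24.4% of all genes.

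Fam110a, whose product is found at the centrosome, had the largest difference between E13.5 and E12.5 in the set, 3.25. It read -1.88 and -1.75 on the E12.5 arrays, 1.57 and 1.31 on those of E13.5, and 1.10 and 0.77 on those of E14.5, and was retained by the rule with a margin of only 0.51 over E14.5. Thsd4, a gene of microfibril assembly, had the same form, with -4.74 and -4.82 on the E12.5 arrays, -1.90 and -2.24 on those of E13.5, and -2.71 and -3.49 on those of E14.5. The remaining members had margins between 0.50 and 0.82. They were Fam169b, at 0.82, the cochaperone family gene Dnajc28, at 0.69, the imprinted gene Peg10 of retrotransposon origin, at 0.68, the RNA binding protein gene Zranb2, at 0.65, Fam25c, at 0.63, the serpin gene Serpina3f, at 0.59, the RING finger gene Rnf207, at 0.57, and the PHD finger gene Phf11a, at 0.50.

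The probes of the 44 genes were dimmer than most. The median signal level over all arrays was -2.44 for the 44 genes and 0.35 for the genes well above background on all 6 arrays. Of the 44 genes 20 (45.5%) had a mean level below -3, beside 15.9% of all those genes, and 11 were above 0, beside 55.0%. Levels of different probes are not set against each other as amounts of RNA.

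The E14.5 duplicates differed more for these 44 genes than for genes in general, and in 1 direction. The rule used these same E14.5 arrays, and how much of the difference follows from the choice of genes was not tested. The first E14.5 array was the higher in 41 of 44 genes (93.2%), beside 57.1% of the genes well above background on all 6 arrays, and the median difference was 0.70 for the 44 genes and 0.04 for all those genes. The exceptions were Slc15a2, Atp4b and Dnajc28. The 2 arrays were apart by over 0.5, in either direction, in 27 of the 44 genes (61.4%) and in 6.54% of all those genes. At E13.5 the first array was the higher in 38 of 44 genes (86.4%, beside 55.5% of all genes), with a median difference of 0.17, and at E12.5 in 15 of 44 (34.1%, beside 50.8%), with a median of -0.12.

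The first E14.5 array was therefore the one nearest to E13.5. It was the highest array outside E13.5 in 32 of the 44 genes, and it lay above both E12.5 arrays in 33. The second was the lowest of all 6 arrays in 25 genes, and it lay below both E12.5 arrays in 25, against 6 for the first. The E13.5 mean exceeded the first E14.5 array by a median of 0.52 and the second by a median of 1.12, and 22 genes had both E14.5 arrays at least 0.5 below it. Over all genes, the SD of the difference between arrays was 0.27 for the second E13.5 and first E14.5 arrays, 0.28 for the E14.5 duplicates and 0.49 for the first E13.5 and second E14.5 arrays.

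**Figure D3:**
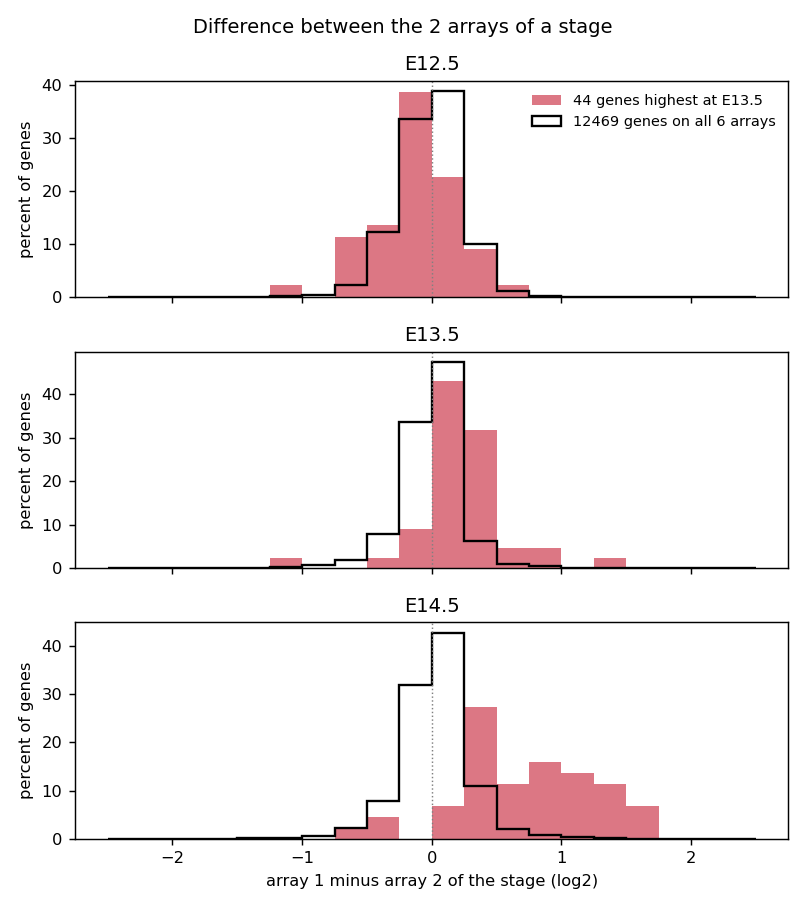
Distribution of the log2 difference between array 1 and array 2 of each stage (x axis), as percent of genes (y axis), for the 44 genes (filled) and for the 12469 genes well above background on all 6 arrays (outline). At E14.5 the 44 genes have a median difference of 0.70, beside 0.04 for all genes, while at E12.5 their median is -0.12. The 44 genes were chosen with these same arrays.

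The sets formed by the same rule also divided the E14.5 duplicates, in different directions. The first E14.5 array was the higher in 39.5% of the 81 genes lowest at E13.5, in 68.2% of the 1265 genes highest at E12.5 and in 17.8% of the 625 genes highest at E14.5. Gene lists moved with the duplicates too. The first array was the higher in 20 of 22 early germ cell and pluripotency genes (median difference 0.66), in 12 of 13 mesonephros and duct genes (0.52), in 23 of 23 ribosomal protein genes (0.24) and in 3 of 33 extracellular matrix genes (-0.34). The summed level of the 13 mesonephros and duct genes (log2) was 3.71 and 3.82 on the E12.5 arrays. It was 3.21 and 2.96 on those of E13.5, and 2.98 and 2.41 on those of E14.5. Of the 19 genes of that list measured, Ret alone was above background on 0 arrays. The part of mesonephric tissue in the 44 genes' values was not tested.

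E14.5 and E12.5 are the pair of stages that the rule did not set against each other. The rule did use the arrays of both stages, so the members' differences and p-values here were not free of that choice. E12.5 was on slide 1 and E14.5 on slide 2, so stage and slide cannot be told apart. Over 13412 genes, each well above background on both arrays of some stage, limma called 6274 genes (46.8%) between E14.5 and E12.5, 3428 higher (25.6%) and 2846 lower (21.2%). Of the 44 genes 10 (22.7%) were called, 9 higher (20.5%) and 1 lower (2.27%), and their median difference was 0.06, beside 0.03 over all genes tested. Centring each array on its median moved the median of all genes to -0.12 and the share of calls that were higher to 41.0%, against 54.6% with the 75th percentile, and left 9 of the 44 genes higher and 2 lower.

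Between E12.5 and E14.5 Fam110a rose by 2.75 on the log2 scale (limma SE 0.16, adjusted p = 0.000497), and Ces1c by 1.78 (SE 0.40, adjusted p = 0.0153). Galnt6 rose by 1.70 and Thsd4 by 1.68, both with adjusted p = 0.005, and Slc6a15 by 1.51 (SE 0.11, adjusted p = 0.000731). Dnmt3a, Grin2d, Kcnj12 and Ifitm3 also rose, by 1.05 (Ifitm3, adjusted p = 0.00601) to 1.18 (Dnmt3a, adjusted p = 0.0236). In all 9 of these genes both E14.5 arrays lay above both E12.5 arrays. Wnt3 fell by 1.19 (SE 0.38, adjusted p = 0.0448), with both E14.5 arrays below both E12.5 arrays.

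The calls of Thsd4, Ifitm3, Slc6a15, Galnt6 and Fam110a passed under each alternative run, including leaving out each array. Those of Kcnj12, Ces1c, Grin2d and Dnmt3a were lost without 1 or more single arrays, with adjusted p up to 0.0847 for Kcnj12 and 0.125 for Grin2d. Those of Ces1c and Dnmt3a were also lost with the mean of all probes in place of the brightest, where the difference was 0.96 for Ces1c (adjusted p = 0.168) and 0.05 for Dnmt3a (adjusted p = 0.785). The call of Wnt3 was lost with another variance prior and without any 1 of 5 arrays, with adjusted p up to 0.181. The number of members called also moved when single arrays were left out, and so did that of all genes. Both ranges are given below. The number of members called lower rests on which E14.5 array is used.

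The rule used the contrasts with E13.5, so their counts and directions follow from how the genes were chosen and are given as a description. Between E13.5 and E12.5 limma called 26 of the 44 genes (59.1%), all higher, beside 32.1% of all genes called, 18.1% higher and 14.0% lower. Between E14.5 and E13.5 it called 0 of the 44 genes, beside 0.0522% of all genes, or 7, of which 6 were higher (0.0447%) and 1 lower (0.00746%). At an unadjusted limma p under 0.05, 32 of the 44 genes and 2481 of the 13412 genes tested passed in that contrast. With limma's trend and robust options 5 of the 44 genes were called lower. The share of all genes called in that run is not given here, so the 5 are not read as a result about the set.

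Other probes of the same genes were not used to choose them, although they were hybridised on the same arrays with the same RNA. Of the 44 genes 30 had 1 probe and 14 had several, which gave 15 other probes. Of these, 8 probes of 7 genes were well above background on every array, and 2 of the 8 had the E13.5 mean highest, both by 0.5 or more. Over other genes with several probes, 24.4% of 5274 such probes had the E13.5 mean highest and 0.834% by 0.5 or more.

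The 2 probes that repeated the peak were those of Wnt3 and Dkk1. The other Wnt3 probe read -1.99 and -1.74 on the E12.5 arrays, -1.08 and -1.37 on those of E13.5, and -2.58 and -3.36 on those of E14.5, a smaller margin of 0.64. The other Dkk1 probe, with a smaller margin of 0.62, read -1.55 and -1.87 on the E12.5 arrays, -1.13 and -1.06 on those of E13.5, and -1.23 and -2.55 on those of E14.5. Its first E14.5 array thus lay close to the E13.5 pair, and only the second lay far below, as on the brightest Dkk1 probe. The other probes of Dnmt3a did not peak. They read 0.56 and 0.41, and -0.53 and -0.64, at E12.5, then 0.21 and 0.13, and -1.09 and -1.01, at E13.5, then 0.07 and -0.26, and -1.15 and -0.92, at E14.5. Against the brightest probe, which was 2.15 higher at E13.5 than at E12.5, they were lower at E13.5 by 0.31 and 0.46. Which exons each probe lies in is not given in the sources used here, so which transcripts of Dnmt3a carry the peak was not tested.

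For Rab6b, Rab37, Dnajc28 and Ccdc186 the other probe had its E13.5 mean below that of another stage, by 0.09 for Rab6b, 0.29 for Rab37, 0.16 for Dnajc28 and 0.41 for Ccdc186. The peak of these genes therefore rests on 1 probe of 2. The 7 remaining other probes were well above background on some arrays or, for Rnf207, on 0. In each of them the E13.5 mean was the highest, by 0.23 for Serpina3f up to 1.38 for Slc15a2, but on arrays where such a probe was not above background its value is only a bound.

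**Figure D4:**
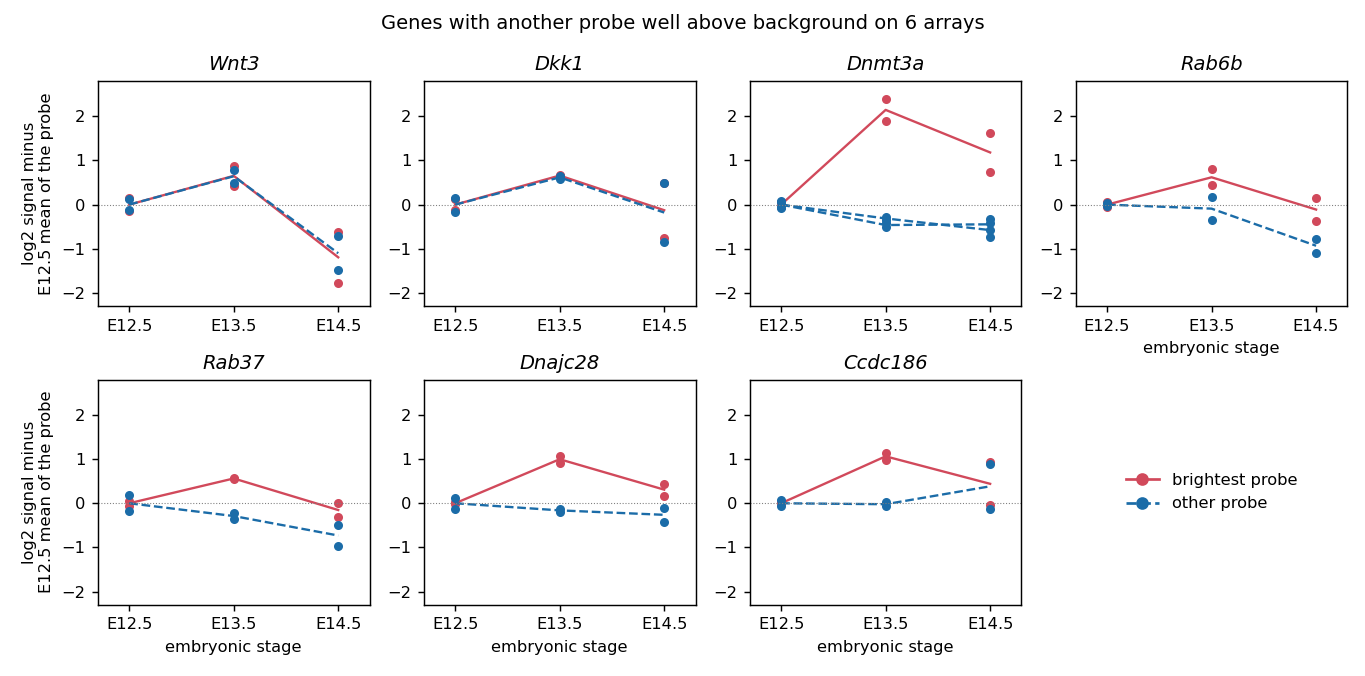
Log2 signal minus the E12.5 mean of the same probe (y axis) by stage (x axis) for the 7 genes with another probe well above background on all 6 arrays, with points for arrays, solid lines for the brightest probe's means and dashed lines for other probes' means. The probes of Wnt3 and of Dkk1 run together, with margins of 0.64 and 0.62 on the other probe, while for Dnmt3a the brightest probe rises by 2.15 and both others fall.

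Membership moved with the processing and with single arrays. Under quantile normalisation 49 genes met the rule, 40 of the 44 among them, under median scaling 62, with 40 of the 44, and with the mean of a gene's probes 43, with 36. With normexp background correction 27 genes met it, 21 of the 44 among them, and of the 23 genes lost 15 had a mean level below -3, against 5 of the 21 kept. Without the second E13.5 array 116 genes met the rule, without the first E14.5 array 109, and without the first E13.5 array 67. Without the second E14.5 array 32 did, 23 of the 44 among them. Under these 4 processing settings, a background filter on the E13.5 arrays alone, and leaving out each array, 9 of the 44 genes met the rule every time. These were Epx, Cfap52, Thsd4, Aldh1a7, Rasgrp1, Gdf3, Grin2c, Mnd1 and T. Dppa3 was lost with normexp correction, and also without the first E12.5, the second E13.5 or the second E14.5 array.

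**Figure D5:**
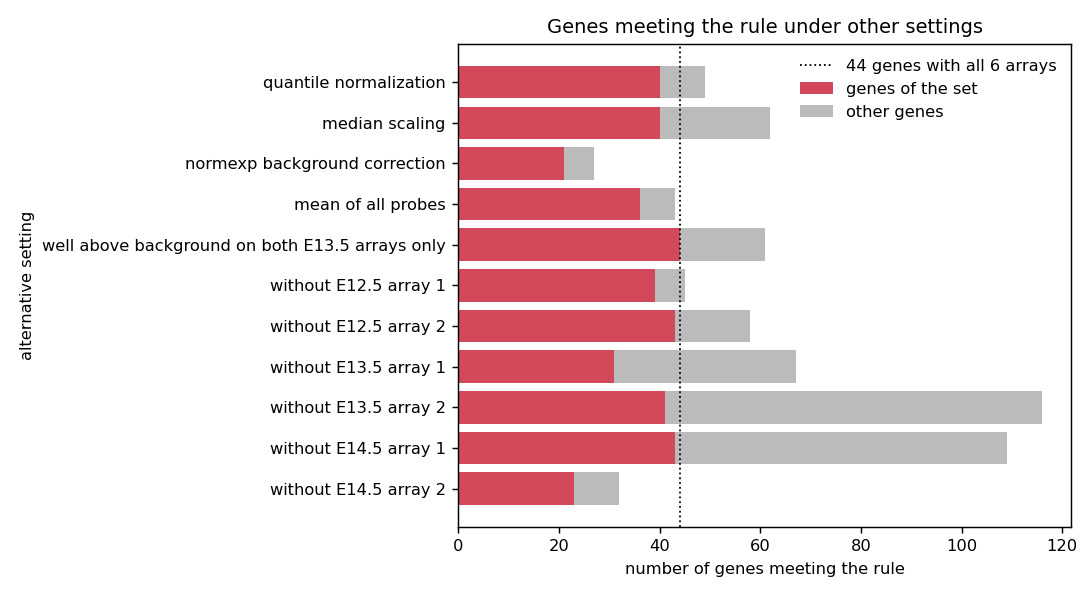
Number of genes meeting the rule (x axis) under each other setting (y axis), with the part that belongs to the 44 genes in red and other genes in grey; the dotted line marks 44. Without the second E13.5 array 116 genes met the rule and 27 did with normexp background correction.

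The promoter windows of the set were compared with those of other genes by composition. A RefSeq window was found for 34 of the 44 genes, 44 windows in all since some genes have several starts. Their median was 10 CpG dinucleotides and 55.2% GC, beside 19 and 60.3% for 12787 windows of genes well above background on all 6 arrays, and 7 and 52.7% for all 32851 windows. TATAAA was in 18.2% of the members' windows, beside 8.06% of the windows of genes on all 6 arrays and 13.6% of all windows. CCAAT was in 22.7%, beside 37.9% and 37.4%.

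The nuclear receptor half-site AGGTCA, which is also part of the retinoic acid response element, was in 20.5% of the members' windows, in 9 genes that include Dnmt3a, Trh, Grin2c and Plch1, beside 12.8% of the windows of genes on all 6 arrays and 16.3% of all windows. The direct repeat of that half-site with 5 bases between was in 0 of the 44 windows and in 0.00913% of all windows. The GATA letters AGATAA were in 13.6%, beside 6.86% and 11.2%. Both strands were read, and the half-site letters overlap those of the repeat and of the SF-1 site CAAGGTCA, which was in 2.27% of the members' windows beside 1.09% and 1.56%. The sets differ in base composition, and these shares were not tested.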

How the data were processed

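The deposited scanner files hold, per the file headers, the spot intensity of 1-colour arrays from Agilent Feature Extraction 9.5, background-subtracted and detrended but not scaled between arrays. Per the labels' protocols, each labelling started from 0.20 µg total RNA with linear amplification and Cy3. The authors' deposited table gives each probe a linear ratio at each stage, with no reference stated. After log2 its columns differed from the scanner values by constant offsets of 0.11 (E13.5 minus E12.5) and 0.12 (E13.5 minus E14.5).

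Outlier spots were dropped, spots of a probe averaged, and the log2 signal centred on the 75th percentile of its array. Of 41174 probes, 41153 had a value on every array and were used, and RefSeq accessions named 23366 probes of 16531 genes. Probe positions were not used here. The brightest probe by mean over arrays stood for each of 5449 genes with several. Differences between stages were fitted in R 4.3.3 by limma 3.58.1 (lmFit and eBayes without a trend, all 6 arrays, 3 residual and 2.97 prior degrees of freedom, two-sided, Benjamini-Hochberg adjusted p of 0.05). The fit was tested on simulated data. The p-values measure the spread between 2 arrays a stage, and the number of arrays limits the precision.

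The 44 genes, the gene lists and the tests were chosen with earlier results of these data known. The rule for named genes took the 20 largest margins, up to 6 members of each list, the 10 brightest at E13.5, up to 5 members called each way between E14.5 and E12.5, members sharing a symbol stem, and the 3 genes on either side of the margin. It named 32 members. The other 12, Peg10, Zranb2, Tmprss3, Ccdc186, Kcnj12, T, Serpina3f, Atp4b, Traf3ip1, Rnf207, Rab37 and Nr1h4, were named after their values were seen. Alternatives were normexp correction (offset 50, on spot medians), quantile and median scaling, the mean of all probes, other background filters, a margin of 1.0, the deposited ratios, another variance prior, a replicate block and leaving out each array. Figures were drawn with matplotlib 3.10.9.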

Additional observations from a re-analysis of the deposited data

How the results depend on the processing

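The size of the set was 44 genes and moved to 27 with normexp correction, 7 with a margin of 1.0, and 131 with the margin applied to the authors' deposited ratios. That last number follows from the constant offset between their columns. With the offset removed, an alternative chosen after seeing the data, it was 53. Without single arrays it ran from 32 to 116. The 6274 genes called between E14.5 and E12.5 ran from 3803 to 5406 without single arrays, the 3428 genes called higher at E14.5 than E12.5 from 2262 to 2984 and the 2846 genes called lower at E14.5 than E12.5 from 1541 to 2422, each lowest without the second E14.5 array. The 10 set members called became 16 with normexp and 6 to 15 without single arrays. The 9 called higher became 15 with normexp and 6 to 14 without single arrays. The 1 called lower became 2 with quantile normalisation, with median scaling or with only genes well above background on all 6 arrays, 0 with the trend and robust prior, and 0 to 8 without single arrays. Apart from the constant offset, the cause of these shifts was not tested. With the replicate block 5816 genes and 10 members were called. Whether array numbers pair the samples was not settled. Over genes, deviations of same-numbered arrays correlated at -0.06 for E12.5 and E13.5 and at -0.06 for E12.5 and E14.5. The correlation was 0.26 for E13.5 and E14.5. No named gene's call made with all 6 arrays turned to the opposite direction under an alternative run. Epx was not called with all 6 arrays. Its E14.5 minus E12.5 difference was -0.84 without the first E14.5 array and 0.91 without the second. The direction for Epx therefore rests on which E14.5 array is used. Dim probes limit the set: 20 of 44 genes had a mean level below -3.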

Other observations

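Other gene groups differed in how often E13.5 was their extreme stage, given here as counts with no test and chosen after their values were seen. Over all genes well above background on all 6 arrays the E13.5 mean was the highest in 24.4% and the lowest in 17.5%. Of 24 respiratory chain genes on all 6 arrays, 13 had the E13.5 mean highest and 3 the lowest, and 0 reached the set. Of 23 heat shock and chaperone genes 8 had it highest and 2 the lowest. Of 25 immediate early genes 1 had it highest and 12 the lowest, and of 25 Hox genes 6 had it highest and 11 the lowest. Of 33 extracellular matrix genes 1 had it highest and 8 the lowest.

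Some probes without a gene name here also met the rule. Of 7838 such probes well above background on all 6 arrays, 51 met the same rule, beside 44 of 12469 named genes. The first count is per probe and the second per gene on its brightest probe, so they are not like for like.

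In the authors' deposited table the ratios of Fam110a were 0.149, 1.53 and 0.987 for the stages in order of age, those of Lefty1 were 1.47, 3.07 and 1.38, and those of Gdf3 were 1.07, 2.10 and 0.726. The reference of these ratios is not stated, so they are given as deposited.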
